A study of Caenorhabditis elegans with 3 samples.

Results

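Three-library peaks outside the reproducible list are places in the C. elegans genome listed for each of 3 EGL-27 ChIP-seq libraries. They are absent from the study's reproducible list. They were chosen as peaks of the pooled list, on genome build ce11 (WBcel235) and nuclear chromosomes only, that overlap by 1 bp or more a peak in each single-library list and overlap no peak of the reproducible list. The rule found 535 of 30000 pooled peaks. The libraries are biological replicates 1, 2 and 4 of whole L4 larvae of both sexes pooled, the last larval stage before the adult. All came from strain OP177, which carries the unc-119(ed3) mutation on chromosome III and the transgene wgIs177, from which EGL-27 is made with GFP and FLAG at its C terminus. The antibody is labelled egl-27. There is 1 group and no second condition, so no comparison between conditions was possible, and a control experiment named in the labels was not analysed here. Sequencing depth is unknown from the files, which limits how firmly a missing partner can be read.

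EGL-27 belongs with the MTA proteins of vertebrates, core parts of the NuRD complex, a machine that joins nucleosome remodelling with histone deacetylation. It also carries a GATA-type zinc finger and is known in C. elegans for roles in embryonic patterning, in Wnt-controlled cell polarity and in stress resistance of adults. In whole animals, a weak peak can come from weak binding in many cells or from strong binding in few, and these cannot be told apart. The reproducible list comes from the irreproducible discovery rate (IDR) procedure, which asks how far peaks keep their rank from list to list. A peak can be found in every library and still be left out, and why each member was left out was not tested.

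The 9 sequences here are 201 bases around the summits of members that carry words the results turn on. They are printed 5' to 3' on the plus strand of ce11, and were taken only from members on chromosomes II to V or X whose 201 bases hold no annotated UTR base. Within that limit the first 5 are those of highest pooled signal with GAGAGA, and ntl-11 and M163.1 are the next of highest signal with CTGCGTC. Members of higher signal with GAGAGA that fall outside the limit, such as mdl-1 and cdk-5, are not printed. Capitals mark GAGAGA (or its reverse complement TCTCTC) and CTGCGTC (or its reverse complement GACGCAG). The last 2 lie at tRNA genes, for valine at Y73B6BL.t1 and for serine at K02A4.t1. Their capitals mark GGTTCGA or its reverse complement, part of the internal promoter of tRNA genes (the B box) that RNA polymerase III factors read, and at Y73B6BL.t1 both overlap in 1 run. Each of these tRNA windows also holds GAGAGA or TCTCTC, which is left in lower case there.
ZK112.4 (chrIII:7729663-7729863): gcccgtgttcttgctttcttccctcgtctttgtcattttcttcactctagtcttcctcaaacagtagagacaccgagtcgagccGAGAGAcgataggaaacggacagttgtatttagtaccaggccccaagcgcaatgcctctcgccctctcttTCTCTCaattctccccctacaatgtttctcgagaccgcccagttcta
puf-9 (chrX:5841220-5841420): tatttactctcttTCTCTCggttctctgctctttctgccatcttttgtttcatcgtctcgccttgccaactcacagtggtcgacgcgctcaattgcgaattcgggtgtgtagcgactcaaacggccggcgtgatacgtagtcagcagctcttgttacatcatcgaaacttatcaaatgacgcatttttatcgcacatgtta
gdh-1 (chrIV:11956334-11956534): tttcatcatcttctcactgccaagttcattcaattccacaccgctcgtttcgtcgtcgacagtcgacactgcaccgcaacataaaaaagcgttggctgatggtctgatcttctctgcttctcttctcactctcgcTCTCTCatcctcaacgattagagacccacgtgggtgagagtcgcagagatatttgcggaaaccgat
rsd-3 (chrX:11791683-11791883): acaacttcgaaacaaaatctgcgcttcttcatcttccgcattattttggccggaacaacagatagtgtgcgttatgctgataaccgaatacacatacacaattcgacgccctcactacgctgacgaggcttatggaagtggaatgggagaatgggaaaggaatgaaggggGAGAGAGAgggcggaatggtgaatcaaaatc
nhr-88 (chrII:2973945-2974145): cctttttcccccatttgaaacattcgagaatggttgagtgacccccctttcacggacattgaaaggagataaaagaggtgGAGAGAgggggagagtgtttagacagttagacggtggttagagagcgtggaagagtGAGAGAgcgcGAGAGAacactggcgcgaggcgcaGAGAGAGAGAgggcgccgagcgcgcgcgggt
ntl-11 (chrIV:15471563-15471763): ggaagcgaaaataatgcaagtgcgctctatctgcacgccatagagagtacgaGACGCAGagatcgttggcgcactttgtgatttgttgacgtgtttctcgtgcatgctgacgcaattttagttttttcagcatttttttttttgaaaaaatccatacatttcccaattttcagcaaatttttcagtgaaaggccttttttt
M163.1 (chrX:14502197-14502397): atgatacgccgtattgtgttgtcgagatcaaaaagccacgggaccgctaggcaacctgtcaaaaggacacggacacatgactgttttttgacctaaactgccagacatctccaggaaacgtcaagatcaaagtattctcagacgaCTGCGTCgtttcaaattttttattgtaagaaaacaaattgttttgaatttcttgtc
Y73B6BL.t1 (chrIV:6481065-6481265): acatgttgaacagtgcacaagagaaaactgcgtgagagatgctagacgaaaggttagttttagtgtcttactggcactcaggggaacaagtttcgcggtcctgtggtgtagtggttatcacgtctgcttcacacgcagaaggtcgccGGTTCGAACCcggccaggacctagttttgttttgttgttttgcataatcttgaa
K02A4.t1 (chrX:12889853-12890053): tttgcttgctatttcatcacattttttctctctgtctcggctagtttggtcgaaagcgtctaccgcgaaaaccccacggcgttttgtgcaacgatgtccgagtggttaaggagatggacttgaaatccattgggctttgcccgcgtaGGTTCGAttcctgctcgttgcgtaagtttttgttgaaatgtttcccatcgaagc
The window at nhr-88 holds GAGAGA in several separate runs, and that at ZK112.4 has it on each strand. At puf-9 and gdh-1 it is on the minus strand alone.

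The members were selected on their overlaps, and the pooled signal, the authors' value for each peak on a scale that the sources used here do not give, sets their upper end. The reproducible list was made up of exactly the 102 pooled peaks of highest signal, from 18.7 to 45.5. Member signals ran from 3.77 to 18.6, with a median of 10.01 and the middle of the distribution between 7.33 and 12.9. The best member held rank 103 of the pooled list (signal 18.6, near ZK112.4), directly after the last reproducible peak at rank 102 (chromosome IV, 7049569 to 7049998, signal 18.7). That last reproducible peak had a partner in replicate 2 alone, while the member behind it had partners in all 3 libraries. At ranks 107, 108 and 109 the peaks had partners in 2 libraries and signals of 18.4. The lowest member held rank 29334, and the median rank was 1486.

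**Figure D1:**
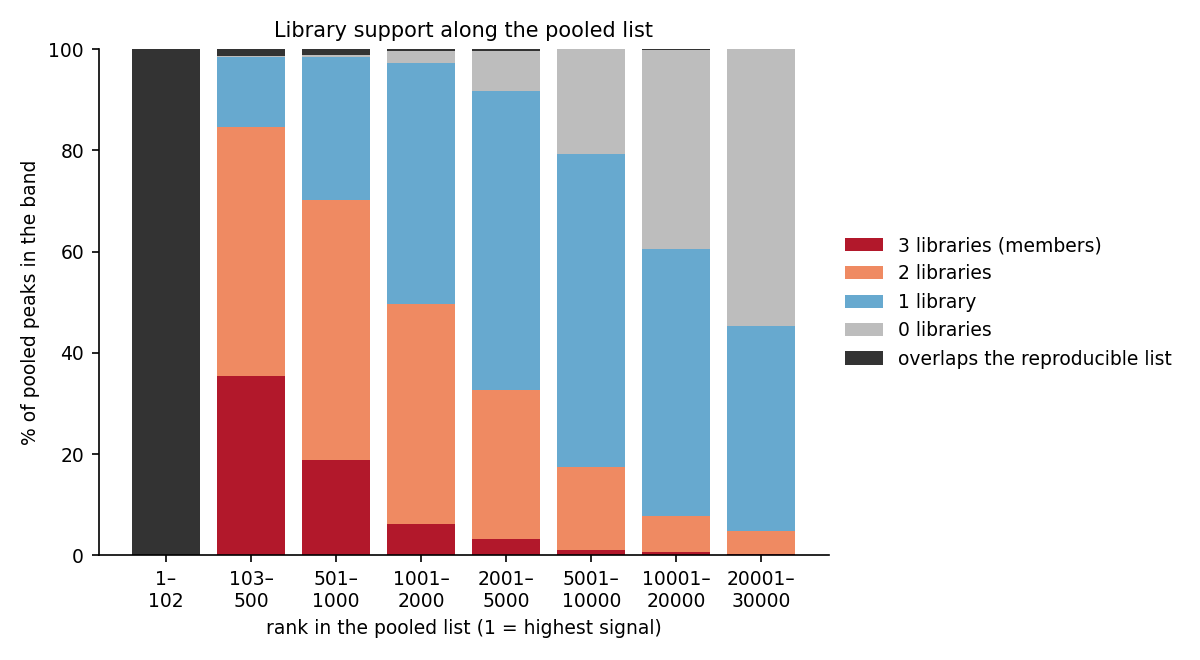
Share of pooled peaks (y axis, %) by library support in bands of pooled rank (x axis, 1 is the highest signal); bars are stacked, with members at the bottom and peaks that overlap the reproducible list at the top. Members make up 35.4% of ranks 103 to 500 and 0.270% of ranks 20001 to 30000.

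Three-library support became rarer down the pooled list. Members were 141 of the 398 peaks at ranks 103 to 500 (35.4%), 94 of 500 peaks at ranks 501 to 1000 (18.8%), 62 of 1000 at ranks 1001 to 2000 (6.20%) and 27 of 10000 at ranks 20001 to 30000 (0.270%). Even between ranks 103 and 500, most peaks lacked a partner in at least 1 library, with 196 found in 2 libraries, 55 in 1 and 1 in none. Over the whole pooled list 645 peaks had partners in all 3 libraries, which is 2.15%, and 110 of these overlapped the reproducible list. This is the share the rule itself fixes. The list of replicate 1 overlapped 23.8% of pooled peaks, that of replicate 2 40.5% and that of replicate 4 16.9%, and the product of these shares is 1.63%. How many members would overlap by position alone was not tested. By their deposited names, the pooled list and the library lists all hold background beside peaks, so a partner may be a background entry.

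Members are not 535 separate places. They merged into 407 regions covering 206 kb, of which 280 held 1 member, 126 held 2 and 1 held 3. Another pooled peak of higher signal overlapped 141 members, whose median signal was 6.83, against 11.4 for the 394 without one. Neighbours often rested on the same library peaks: the highest-signal partners of the 535 members were 410 distinct peaks in replicate 1, 410 in replicate 2 and 407 in replicate 4. The nearest reproducible summit was a median of 272 kb away, and 18 members lay within 2000 bp of one.

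The libraries ranked the members differently. The partner's median rank was 3169 in replicate 1 (9666 nuclear peaks), 3519 in replicate 2 (13663) and 1693 in replicate 4 (6636). Among the 100 highest peaks of a library there were partners of 23 members in replicate 1, 10 in replicate 2 and 21 in replicate 4. Only 17 members had a partner among the 1000 highest peaks of all 3 libraries, 87 did so in 2 libraries, 200 in 1 and 231 in none. Across the 535 members partner signals in replicate 1 had a Spearman correlation of 0.061 with those in replicate 2 and 0.085 with those in replicate 4. The remaining pair, replicates 2 and 4, had 0.094. Pooled signal correlated with that of the partner at 0.25 in replicate 1, 0.35 in replicate 2 and 0.22 in replicate 4. These correlations describe peaks that share partners and that were chosen below a pooled signal, and they carry no test.

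Library summits lay farther from the pooled summit in members than in the reproducible list. Distances between the libraries' own summits were not measured. The members include the 141 overlapped by a stronger pooled peak, and their part in this difference was not tested. All 3 library summits lay within 100 bp of the pooled summit in 83 members (15.5%, 95% exact binomial interval 12.6 to 18.9%), against 37 of the 76 reproducible peaks with 3 partners (48.7%, interval 37.0 to 60.4%). Within 200 bp the counts were 210 members (39.3%, interval 35.1 to 43.5%) and 68 reproducible peaks (89.5%, interval 80.3 to 95.3%). The median gap to the nearest partner summit was 101 bp in replicate 1, 63 bp in replicate 2 and 95 bp in replicate 4. Overlapping peaks of 430 to 460 bp cannot have summits much farther apart than their width, so the rule bounds these gaps. These intervals, like all below, cover counting error over peaks only.

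**Figure D2:**
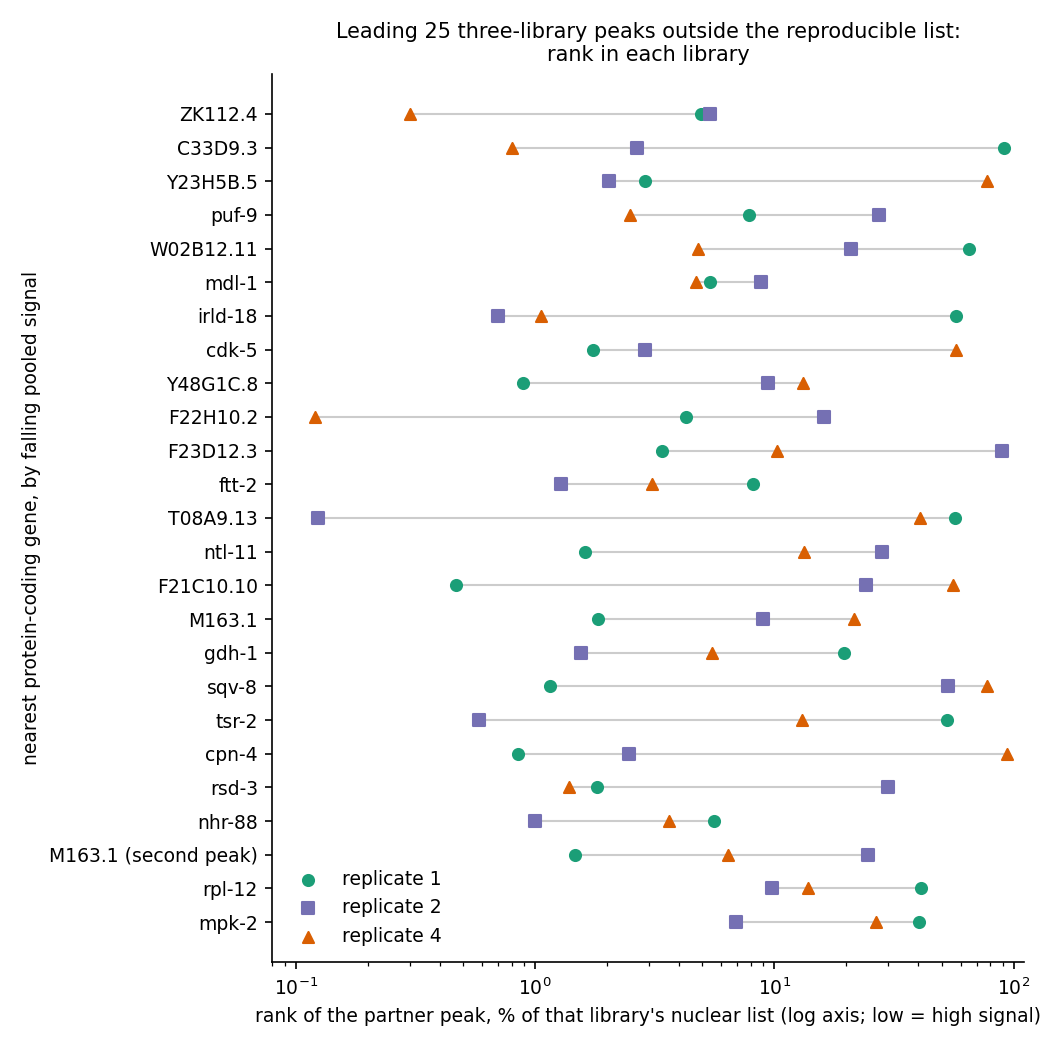
Rank of the partner peak in each library, as a percentage of that library's nuclear list (x axis, log scale, low values mean high signal), for the 25 members of highest pooled signal (y axis, nearest protein-coding gene); a grey line joins the 3 libraries. At mdl-1 the 3 points lie closest to one another, while at C33D9.3, T08A9.13 and cpn-4 they span most of the axis.

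The 25 members of highest pooled signal lay at genes of many kinds. At mdl-1, which encodes a MAD-like basic helix-loop-helix zipper protein, the summit lay 77 bp upstream of the start (X, 6742059 to 6742488, pooled signal 18.2). Its partner signals were 4.93 in replicate 1, 6.43 in replicate 2 and 5.38 in replicate 4, at ranks 522, 1207 and 311. Its poorest position in a list was thus 8.83%, counted from the top. At puf-9, a Pumilio-family RNA-binding protein, the summit lay 272 bp upstream (X, 5841105 to 5841534, pooled signal 18.4), with partner signals of 4.56, 4.93 and 6.17 in replicates 1, 2 and 4. At cdk-5, a cyclin-dependent kinase of neurons, it lay 57 bp upstream and inside kel-3 (III, 13466184 to 13466613, pooled signal 18.2), with partner signals of 6.08, 8.19 and 2.61. Replicate 4 held that peak at rank 3803, in the lower part of its list. At ntl-11, named for a subunit of the CCR4-NOT deadenylation complex, it lay 168 bp upstream (IV, 15471448 to 15471877, pooled signal 17.8), with 6.13, 4.88 and 4.11.

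The highest member of all was at ZK112.4 and ncl-1, a regulator of nucleolar size (III, 7729548 to 7729977, pooled signal 18.6). Its summit lay 248 bp inside ZK112.4, and partner signals were 5.05 in replicate 1, 7.18 in replicate 2 and 10.2 in replicate 4, which is rank 20 there. The second, between genes and 2352 bp upstream of C33D9.3 (IV, 8795045 to 8795474, pooled signal 18.5), had 2.17, 8.34 and 8.56. In replicate 1 this was rank 8801, near the end of the list, while replicate 4 had it at rank 53. At T08A9.13 replicate 2 led instead (X, 7323479 to 7323908, pooled signal 17.98), with partner signals of 2.63, 15.7 and 2.93. Its rank in replicate 2 was 17, the best rank any member reached there. At the peak nearest cpn-4, a calponin gene, which lay in an intron of F49D11.10 (I, 10927469 to 10927898, pooled signal 17.4), the signals were 7.01, 8.47 and 2.08, and replicate 4 had the peak at rank 6227. High pooled signal thus went with even support at some members and with 1 or 2 strong libraries at others.

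Others of the 25 lay near ftt-2, a 14-3-3 protein that binds the insulin-pathway factor DAF-16 (X, 514 bp upstream, pooled signal 17.98), and sqv-8, an enzyme of glycosaminoglycan synthesis needed for vulval shape (II, 659 bp upstream, pooled signal 17.4). Further ones lay at tsr-2 (IV, 172 bp upstream, pooled signal 17.4), W02B12.11 (II, 38 bp upstream, pooled signal 18.3), Y48G1C.8 (I, 72 bp upstream, pooled signal 18.2) and F21C10.10 (V, 534 bp upstream, pooled signal 17.7). Farther from any protein-coding start were those near nhr-88, a nuclear hormone receptor (II, 2594 bp upstream, pooled signal 17.2), gdh-1, a glutamate dehydrogenase (IV, 3185 bp downstream, 17.5), rsd-3, an epsin-like protein of systemic RNA interference (X, 6722 bp upstream, 17.3), irld-18 (IV, 13397 bp upstream, 18.2) and F22H10.2 (X, 2620 bp downstream, 18.1). M163.1 on the X chromosome had 2 members, 1527 bp downstream (pooled signal 17.6) and 2279 bp upstream (17.1) of its start. At the puf-9, ftt-2, gdh-1 and rsd-3 peaks a gene of Ensembl's ncRNA class started nearer, 30, 56, 43 and 38 bp from the summit. Such a gene had the nearest start of all, within 100 bp, for 36 members (6.73%). This compares with 3.83, 2.13 and 1.65% of 2-, 1- and 0-library peaks and 9.80% of the reproducible list.

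The members with the best position in their poorest library were partly others. A pair of overlapping members 445 and 234 bp from the microRNA gene mir-52, and 10217 and 10006 bp from the nearest protein-coding start, that of Y37A1B.7, led by this measure (IV, 14033348 to 14033777 and 14033559 to 14033988, pooled signals 13.2 and 8.24). Both rested on the same 3 library peaks, with signals of 6.71, 9.68 and 9.38 at ranks 100, 165 and 32 in replicates 1, 2 and 4. No other member stood in the upper 2% of all 3 lists. At wip-1, a partner of the actin regulator WASP, the summit lay 323 bp upstream (III, 5018101 to 5018530, pooled signal 16.9), and partner signals were 5.78, 9.88 and 5.37. In the 3' UTR of T26A8.4 there were 2 overlapping members (IV, pooled signals 14.1 and 12.3) on the same partners, with 4.55, 6.98 and 4.67. An intron of M01H9.3 held the last of these (IV, 4471323 to 4471752, pooled signal 11.7), with 4.34, 7.18 and 6.51. The pooled list had the pair at ranks 415 and 3469 of 30000, a list of another length whose ranks cannot be set beside these.

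Around egl-27 itself the members were dense. The gene (II, 6835008 to 6847908) with 20000 bp to each side, a window chosen after the values were seen, held 46 pooled peaks, of which 9 (19.6%) were members, against 1.78% of the whole pooled list, and 6 overlapped the reproducible list. The strongest lay inside egl-27 and 445 bp upstream of tbc-6, a TBC-domain gene beside it (6847464 to 6847893, pooled signal 15.9), with partner signals of 9.20 in replicate 1, 8.47 in replicate 2 and 2.24 in replicate 4. Another, 161 bp upstream of tbc-6 (6847748 to 6848177, pooled signal 11.4), had 9.20, 8.47 and 6.04. Since the transgene carries copies of egl-27 sequence, extra copies and binding at the gene's own locus cannot be told apart here. Some of the 9 members overlapped one another, and the 1 merged region with 3 members is that at tbc-6. The same window around unc-119 held 13 pooled peaks and no member. With members at 1.78% of the pooled list, so few peaks would mostly hold none.

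In position along the genome, members had higher X chromosome and promoter shares than 1- and 0-library peaks. For promoters the share of 2-library peaks, 34.3%, lay within the interval of the members. The X chromosome held 134 members (25.05%, interval 21.4 to 28.9%), against 19.03% of 2-library peaks, 18.3% of 1-library peaks and 18.1% of 0-library peaks outside the reproducible list, 30.4% of the reproducible list and 17.7% of nuclear length. By merged region it was 99 of 407 (24.3%). The other chromosomes held 63 (I), 78 (II), 95 (III), 80 (IV) and 85 (V) members. Among the libraries, X carried 20.6% of the peaks of replicate 4, 18.6% in replicate 1 and 18.1% in replicate 2. Leaving out replicate 4, so that a partner in replicates 1 and 2 sufficed, gave 2311 peaks with an X share of 19.04%. Without replicate 1 it was 21.4% of 1793 peaks, and without replicate 2 it was 23.3% of 1258. Without the 29 members beside tRNA genes, a choice made after the values were seen, it was 110 of 506 (21.7%, interval 18.2 to 25.6%). The same exclusion gave 18.4, 18.1 and 18.04% of 2-, 1- and 0-library peaks and 27.2% of the reproducible list. On the autosomes 191 of 401 members (47.6%, interval 42.7 to 52.6%) had summits in the middle part when each chromosome is cut into 3 equal lengths, against 41.9, 36.7 and 35.5% of 2-, 1- and 0-library peaks and 49.3% of the reproducible list.

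Members near genes lay mostly upstream of starts and seldom in coding sequence. A summit within 500 bp of a protein-coding transcript start, called promoter here, was found for 201 members (37.6%, interval 33.5 to 41.8%), against 34.3, 28.2 and 25.01% of 2-, 1- and 0-library peaks and 28.4% of the reproducible list. Of these promoter members, 136 (67.7%, interval 60.7 to 74.1%) lay on the upstream side, against 60.1, 51.3 and 48.6% for 2-, 1- and 0-library promoter peaks and 86.2% of the 29 reproducible promoter peaks. Starts of at least 2 protein-coding genes lay within 500 bp of 24 members (4.49%), against 3.81, 2.00 and 1.58% and 7.84% for the same classes in this order. Coding exons held 31 members (5.79%, interval 3.97 to 8.12%), against 11.5, 16.6 and 18.9% of 2-, 1- and 0-library peaks and 0.980% of the reproducible list. Introns held 97 (18.1%), against 21.03, 24.6 and 25.7% and 28.4%. A further 186 members (34.8%) lay between genes, 15 in 3' UTRs and 5 in 5' UTRs. On the X chromosome 38 of 134 members (28.4%, interval 20.9 to 36.8%) were promoter members, against 163 of 401 on the autosomes (40.6%, interval 35.8 to 45.6%).

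**Figure D3:**
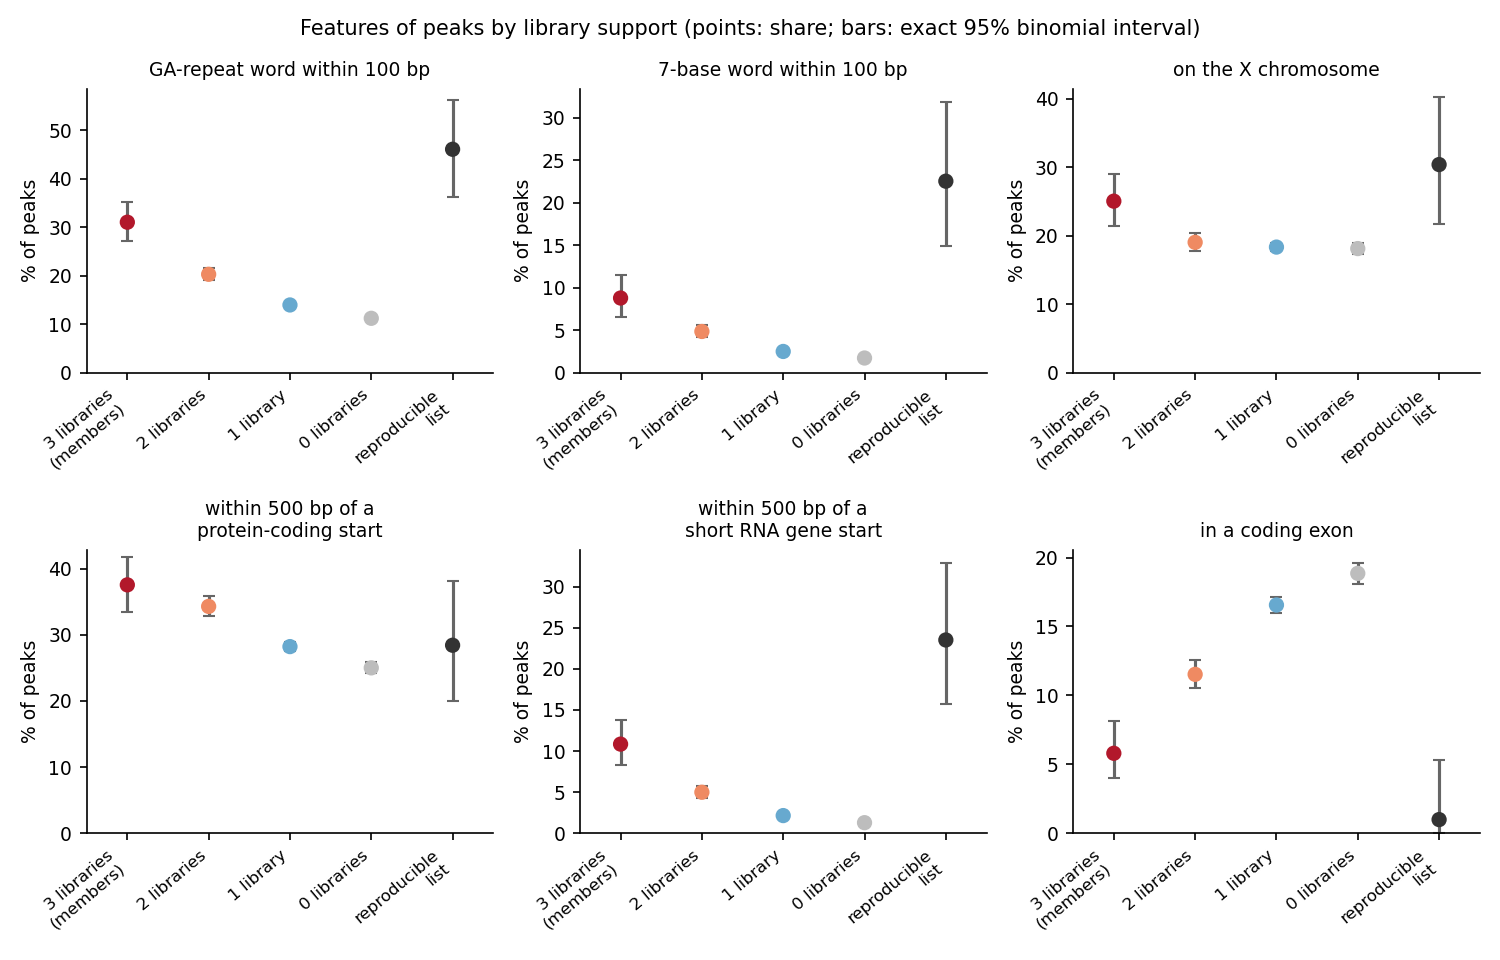
Share of peaks (y axis, %) with each of 6 features, for members, for 2-, 1- and 0-library pooled peaks outside the reproducible list, and for the reproducible list (x axis); bars are exact 95% binomial intervals. The GA-repeat word is GAGAGA and the 7-base word is CTGCGTC. For each feature except promoters the members lie between the 2-library peaks and the reproducible list; for promoters they lie above both.

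Short RNA genes were frequent neighbours. A tRNA, snRNA, snoRNA, miRNA or rRNA gene started within 500 bp of 58 members (10.8%, interval 8.34 to 13.8%), against 4.98, 2.13 and 1.27% of 2-, 1- and 0-library peaks and 23.5% of the reproducible list. Of the members, 29 were beside tRNA genes, 19 beside snoRNA genes, 12 beside miRNA genes and 1 beside an snRNA gene, some beside more than 1 kind. Small nuclear RNA genes were the class in which members and the reproducible list stood furthest apart, with 0.187% of members (interval 0.00473 to 1.04%) and 6.86% of reproducible peaks (interval 2.80 to 13.6%). For miRNA genes the shares were 2.24% of members (interval 1.16 to 3.89%), 0.319, 0.330 and 0.299% of 2-, 1- and 0-library peaks and 1.96% of the reproducible list. No member lay beside an rRNA gene, and neither did any of the 30000 pooled peaks.

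The tRNA members stood at 22 distinct genes, 3.59% of the 612 nuclear tRNA genes. The X chromosome held 24 of the 29 members and 276 of the 612 genes (45.1%). By RefSeq's products 3 genes each were for alanine, glutamine and proline, 2 each for asparagine, aspartate, glycine, methionine and valine, and 1 each for glutamate, isoleucine and serine. The median distance to the start was 82 bp, and 7 summits lay inside the gene. The strongest were beside F23D12.t2, a proline tRNA gene (X, 14437614 to 14438043, pooled signal 18.1, partner signals 5.39, 3.31 and 4.41 in replicates 1, 2 and 4), T08A9.t1, an alanine tRNA gene (the T08A9.13 peak above), and F49D11.t1, a glycine tRNA gene (I, the cpn-4 peak). At K02A4.t1, whose sequence is printed above, the summit lay 13 bp from the start and the signals were 7.40, 7.39 and 3.61. At Y73B6BL.t1 it lay 4 bp away and they were 4.46, 9.63 and 2.92. Such genes have near-identical copies: in 22 of the 29, less than 90% of the 31-base words in the peak were unique in the nuclear genome, against 31 of all 535 members (5.79%). How reads with several matches were placed is not stated in the sources used here, and its part in these values was not tested.

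Beside snoRNA genes, which guide modification of ribosomal RNA, the strongest member was at Y23H5B.10 (I, 2514056 to 2514485, 40 bp from its start, pooled signal 18.5, partner signals 5.55, 8.78 and 2.29 in replicates 1, 2 and 4). The second was the rsd-3 peak, 332 bp from C34E11.20 (X, 11791568 to 11791997, pooled signal 17.3, signals 6.04, 4.81 and 7.22). The third was at C04G6.12 in an intron of mpk-2, a MAP kinase gene (II, 5105069 to 5105498, 53 bp, pooled signal 17.1, signals 2.99, 6.76 and 3.37). The next was at F30H5.4 (III, 72 bp, pooled signal 16.96, signals 6.53, 4.55 and 4.73). The miRNA neighbours included mir-71, known for roles in lifespan and neurons, inside ppfr-1 (I, 85 bp, pooled signal 10.5, signals 3.48, 5.51 and 3.02). Others were mir-56 (X, 2 members at 439 and 162 bp), mir-238 (III, 2 members at 224 and 423 bp), mir-239b (X, 497 bp) and mir-4936 (III, 2 members at 338 and 1 bp).

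GAGAGA, read on either strand in the 201 bases around the summit, was in 166 members (31.03%, interval 27.1 to 35.1%), against 20.3, 13.95 and 11.2% of 2-, 1- and 0-library peaks and 46.1% of the reproducible list (interval 36.2 to 56.2%). In windows of the same length 1000 bp to either side of the members it was in 13.2%, against 10.8% for the pooled list. By 50-bp bins the word started most often from 50 bp before to 50 bp after the member summits (9.91 to 10.8% of members per bin), and in the outermost bins it was at 3.74% (1000 bp before) and 5.23% (1000 bp after). Promoter members had it in 30.8%, intron members in 35.1% and members between genes in 31.7%, while it was in 2 of the 31 in coding exons (6.45%, interval 0.791 to 21.4%). On the X chromosome 26.1% had it and on the autosomes 32.7%.

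**Figure D4:**
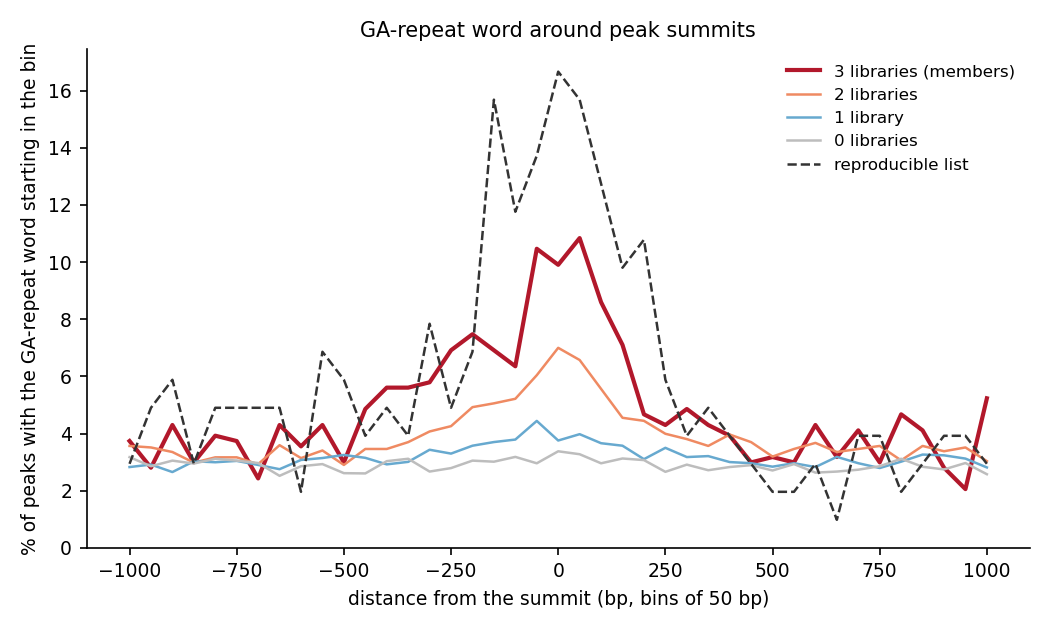
Share of peaks with the GA-repeat word GAGAGA, on either strand, starting in each 50-bp bin (y axis, %) by distance from the summit (x axis, bp), for members, for 2-, 1- and 0-library peaks and for the reproducible list. The members reach 10.8% near the summit, above the 2-, 1- and 0-library peaks and below the reproducible list, which reaches 16.7%.

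Set side by side at like pooled signal, members and 2-library peaks had overlapping intervals for GAGAGA in 5 of 6 ranges. Among peaks with pooled signals over 14 and below the reproducible list, it was in 43.8% of 96 members (interval 33.6 to 54.3%), 45.1% of 102 2-library peaks (interval 35.2 to 55.3%) and 46.4% of 28 1-library peaks (interval 27.5 to 66.1%). Up to a signal of 6 it was in 12.05% of 83 members (interval 5.93 to 21.04%), 16.4% of 1158 2-library peaks, 12.7% of 9224 1-library peaks and 10.8% of 9372 0-library peaks. The exception was the range from 8 to 10, with 37.9% of 103 members (interval 28.5 to 48.0%) and 17.9% of 776 2-library peaks (interval 15.3 to 20.8%). From 10 to 12 the order turned, with 22.6% of members and 27.5% of 2-library peaks. The part of pooled signal in the difference over all members was not tested. Short RNA genes were beside 9.64% of members up to a signal of 6 (interval 4.25 to 18.1%), against 3.71% of 2-library peaks (interval 2.70 to 4.97%), 1.60% of 1-library and 1.08% of 0-library peaks. From 6 to 8 it was 3.70% of members and 3.82% of 2-library peaks, and over 14 it was 18.8 and 12.7%. X shares of members and 2-library peaks were 25.3 and 19.3% up to a signal of 6, and 18.5 and 19.5% from 6 to 8. From 8 to 10 they were 26.2 and 17.9%, and from 10 to 12 they were 29.8 and 17.1%. In the highest ranges they were 26.1 and 20.5% (12 to 14) and 24.0 and 24.5% (over 14). Promoter shares of members and 2-library peaks were 37.3 and 31.9% up to 6, and 40.7 and 30.9% from 6 to 8. From 8 to 10 they were 32.0 and 36.7%, and from 10 to 12 they were 40.5 and 43.0%. In the 2 highest ranges they were 37.5 and 39.1% (12 to 14) and 38.5 and 37.3% (over 14). Base composition moved with signal too, with a median GC content of 36.3% in members up to 6 and 43.5% in members over 14.

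**Figure D5:**
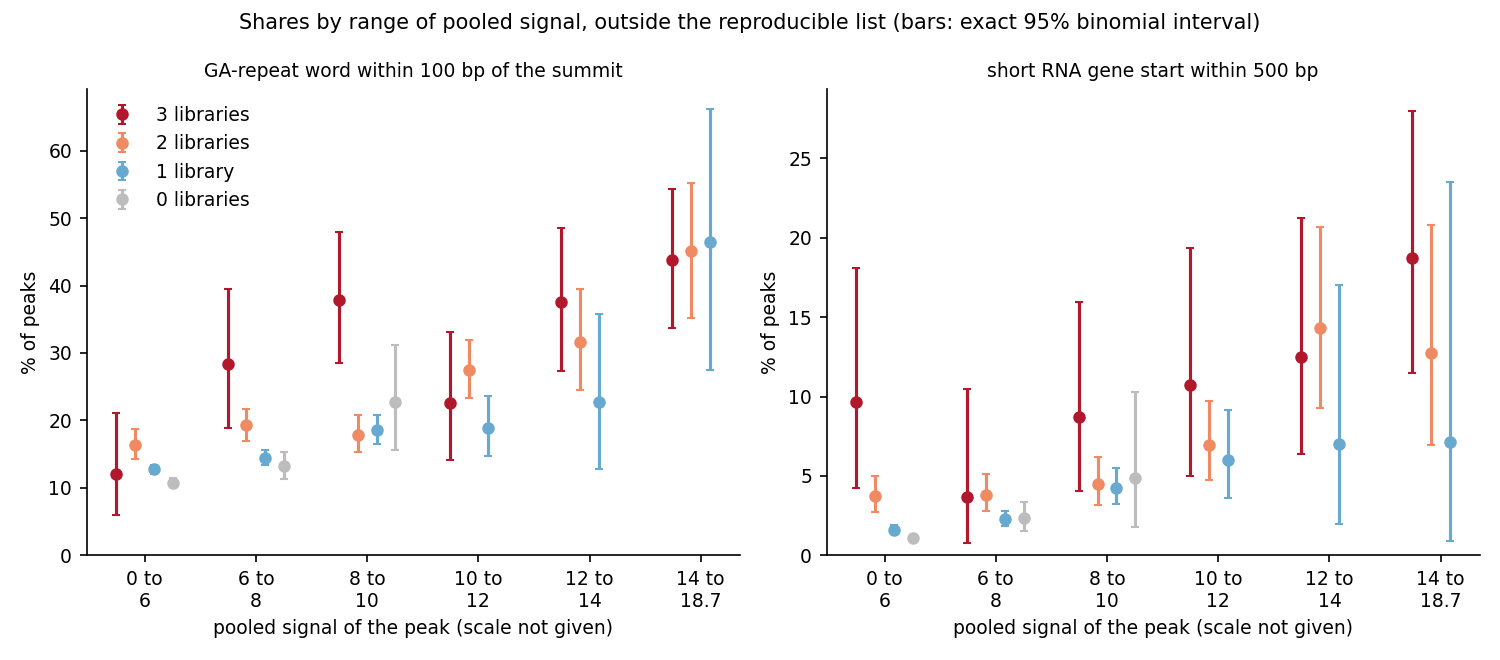
Share of peaks (y axis, %) with the GA-repeat word GAGAGA near the summit and with a short RNA gene start within 500 bp, in 6 ranges of pooled signal (x axis, ranges of unequal width), for members and for 2-, 1- and 0-library peaks outside the reproducible list; bars are exact 95% binomial intervals and classes under 20 peaks are left out. GAGAGA shares of members and 2-library peaks are 43.8% and 45.1% in the highest range and 12.05% and 16.4% in the lowest.

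Among the other searched words, CACACA was chosen after the values of the count of 6-base words below were seen. It was in 110 members (20.6%, interval 17.2 to 24.2%), against 12.7, 10.4 and 9.43% of 2-, 1- and 0-library peaks and 33.3% of the reproducible list. In the windows 1000 bp from the members it was in 10.9%. WGATAR, the sequence read by GATA factors, in which W stands for A or T and R for A or G, was in 38.1% of members (interval 34.0 to 42.4%), against 37.2% of the windows 1000 bp away and 38.4, 37.1 and 36.4% of 2-, 1- and 0-library peaks. The reproducible list had WGATAR in 30.4% (interval 21.7 to 40.3%). CACGTG was in 5.79% of members and GGGCGG in 5.98%, against 5.40 and 4.21% of 2-library peaks and 12.7 and 11.8% of the reproducible list. TTTCAAA was in 15.7% of members (interval 12.7 to 19.1%), against 23.8, 26.7 and 26.9% of 2-, 1- and 0-library peaks and 12.7% of the reproducible list. Among all 2080 words of 6 bases, counted with their reverse complements, GAGAGA differed most in percentage points between members and 0-library peaks, followed by AGAGAG and AAGAGA. The first 10 also held ACACAC, which overlaps CACACA, and CGTCTC (17.9% of members, 5.71% of 0-library peaks), as well as ACGCAG (15.7 and 4.06%). From this count CACACA and CTGCGTC were chosen after the values were seen. CTGCGTC contains the reverse complement of ACGCAG. It was in 47 members (8.79%, interval 6.53 to 11.5%), against 4.84, 2.49 and 1.72% of 2-, 1- and 0-library peaks, 22.5% of the reproducible list and 2.06% of windows 1000 bp away. At like pooled signal, intervals for CTGCGTC in members and 2-library peaks overlapped in every range. Over a signal of 14 it was in 12.5% of members (interval 6.63 to 20.8%) and 15.7% of 2-library peaks (interval 9.24 to 24.2%). The share of the 28 1-library peaks was higher still (interval 10.7 to 44.9%). In each lower range members had a higher share than 2-library peaks, with 6.02 and 2.85% up to 6. The part of pooled signal was not tested. Both CTGCGTC and GAGAGA were in 28 members. A match is a description of letters and says nothing of which protein was there.

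In all, 387 members were assigned to a protein-coding gene, its start being at most 2000 bp away, and these were 296 genes, 1.48% of 19973 protein-coding genes. Of 350 matched genes on 16 lists of pathways and cell types, 15 (4.29%) had a member. For NuRD and MTA-related genes it was 1 of 13, dcp-66, a p66 subunit gene of NuRD (I, 201 bp from the start, pooled signal 9.31, partner signals 4.45, 4.76 and 2.70 in replicates 1, 2 and 4). Among SWI/SNF and other remodellers it was 3 of 14, all in introns: zfp-1, the AF10 relative (III, pooled signal 14.9), let-526, the ARID1 relative (I, 12.002), and pbrm-1, the polybromo subunit (I, 7.88). The synMuv and heterochromatin list had met-1, a histone H3 lysine methyltransferase (I, 21 bp from the start, pooled signal 13.6), as 1 of 25. For zfp-1 the partner signals were 5.17, 6.01 and 5.15 in replicates 1, 2 and 4.

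Developmental lists are short and had members at 1 or 2 genes each, or at none. By matched genes this was 11.8% of heterochronic, 11.1% of TGF-beta, 9.09% of GATA factor and 3.57% of Wnt genes. Each of these shares rests on 1 or 2 genes, and over all protein-coding genes the share was 1.48%. Of 17 matched heterochronic genes, which time larval stages, 2 had a member within 2000 bp of a start: mab-10, a NAB-type cofactor that works with LIN-29 at the end of larval life (II, 277 bp, pooled signal 14.2, partner signals 3.81, 5.11 and 3.98), and kin-20, a casein kinase (X, in an intron, pooled signal 14.05). Members whose nearest protein-coding start was that of lin-42 (II, pooled signals 10.2 and 9.36) or hbl-1 (X, 10.4) are outside these counts. The Wnt list had wrm-1, a beta-catenin of asymmetric divisions (III, 720 bp, pooled signal 15.5, signals 4.52, 6.61 and 3.53), as 1 of 28, and the GATA factor list had elt-2, the factor of intestinal identity, as 1 of 11, with 2 members of pooled signal 6.99 and 4.38. The TGF-beta list had sma-2, a Smad (III, 2 members of pooled signal 10.8 and 9.09), and sma-9, a Schnurri-type zinc finger protein (X, in an intron, 6.93), as 2 of 18. Further single genes were dpy-30, shared by dosage compensation and histone methylation complexes (V, pooled signal 14.1), atf-7, a bZIP factor of innate immunity (III, 14.6 and 12.1), lag-1, the DNA-binding effector of Notch (IV, 14.6 and 9.51), and unc-104, a kinesin of synaptic vesicle transport (II, 6.399). The lists of Hox genes (9 matched), epidermis and seam cell genes (21), translation factors (23), muscle genes (36) and germline genes (28) had none. On lists this short, a count of none is near the 1.48% of all protein-coding genes.

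Gene families were counted by symbol, a choice made after the values were seen. Ribosomal protein genes had 12 members at 8 of 78 genes, 2.24% of members (interval 1.16 to 3.89%), against 0.559, 0.263 and 0.196% of 2-, 1- and 0-library peaks and 0.980% of the reproducible list. All 12 lay within 500 bp of a start. They were at rpl-12 (IV, 44 bp, pooled signal 17.1, partner signals 2.99, 6.28 and 4.08), rpl-36 (III, 15.9), rpl-27 (I, 15.02), rpl-21 (III, 14.6), rpl-3 (III, 13.97), rps-28 (IV, 10.6), rpl-7 (I, 9.20) and rpl-38 (V, 8.82), with the second members at 4 of these genes lower. At rpl-21 the summit was 8 bp from the start, with partner signals of 6.19, 3.89 and 4.72. GAGAGA was in 1 of the 12, that at rpl-3. Nuclear hormone receptor genes had 11 members at 7 of 269 genes, led by nhr-10 (III, pooled signal 16.5, partner signals 5.21, 9.58 and 4.15) and nhr-19 (II, 15.8), and 4 of the 11 were at nhr-48. This was 2.06% of members (interval 1.03 to 3.65%), against 1.28, 1.14 and 0.989% of 2-, 1- and 0-library peaks and 1.96% of the reproducible list. Collagen genes of the cuticle had 5 members at 4 of 171 genes, or 0.935% of members (interval 0.304 to 2.17%), against 0.719, 0.714 and 0.439% and 0.980% for the same classes, and histone genes had none of 72.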

How the data were processed

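ChIP-seq peak lists of 3 libraries, the pooled list and the reproducible (IDR) list were used as the authors deposited them. Each single-library list was made from that library's alignment and a further file (read here as the control), the pooled list from the 3 alignments and that file, and the reproducible list from these 4 lists, per the deposited README texts. No source used here names the aligner, peak caller or IDR threshold, and depth is unknown. Signal is the authors' deposited value per peak, compared only within a list. The q column, deposited as a score, was not used.

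A partner is a library peak overlapping by 1 bp or more; where several did, the highest signal was taken, and for summit gaps the nearest. Genes came from Ensembl release 115, tRNA products and sequence from RefSeq WBcel235. Summits were classed in the order promoter (500 bp), 5' UTR, coding part of an exon, 3' UTR, intron, intergenic. Short RNA genes are Ensembl's tRNA, snRNA (spliced leader RNA included), snoRNA, miRNA and rRNA genes. Merged regions, words and uniqueness were computed in Python 3.11.15 (numpy 2.4.6, pandas 2.3.3, scipy 1.17.1, matplotlib 3.10.9). Intervals are exact (Clopper-Pearson, 95%). No p-values were computed.

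Named members are the 25 of highest pooled signal, the 12 best in their poorest library, up to 4 per gene list; others were chosen after values were seen. Members and lists were chosen with earlier results of these data known. The functions were tested on simulated data.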

Additional observations from a re-analysis of the deposited data

Results flagged for a closer look

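The list of replicate 2 held 23 mitochondrial peaks, which none of the results here use. Their signals ran from 14.1 to 335, against a highest nuclear signal of 22.5 in the same list; the lists of replicates 1 and 4 held none.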

How the results depend on the processing

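The member count depends on the rule: it was 535 as reported, 248 with an overlap of at least 50% of the pooled peak, 83 with a library summit within 100 bp and 298 with each library list cut to 6636 peaks. Leaving out 1 replicate at a time gave 1258 to 2311. It stayed within 1.5 times with the reproducible list widened by 1000 bp (528), 1 peak per merged region (407), the egl-27 window left out (526) and build ce10 (642, beside 70 reproducible peaks there). The X share ran from 19.04 to 23.3% without a replicate, and the short RNA gene share from 6.10 to 8.19%, was 14.2% in the upper 50% by pooled signal and 7.10% within 200 bp. The promoter share was 18.9% within 200 bp and 52.1% within 1000 bp. The GAGAGA share was 35.9% with 50% overlap, 36.1% with summits within 100 bp, 20.8 to 26.2% without a replicate, 17.01% with 50 bp to each side and 42.2% with 200 bp. The cause was not tested, except that shorter or longer windows hold fewer or more letters. Of 58 alternative values, 36 stayed within the reported interval or 1.5 times the count and 22 moved. No paired analysis was possible because there is 1 group. Depth is unknown, so absence of a partner is no evidence of absence of binding. The choice of 1 peak per region, the egl-27 window and members without tRNA neighbours was made after seeing the data.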
